A study of Mus musculus with 37 samples.

Results

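Chemokines are small secreted or membrane-bound proteins that direct the movement of leukocytes, and 40 genes for mouse chemokines and their receptors were followed here in gastrocnemius muscle. The set holds the protein-coding genes whose symbols begin with Ccl, Cxcl, Cx3cl, Cx3cr, Cxcr or Ackr, or read Ccr and a number, and that had at least 10 counts in at least 3 of 37 libraries. Of 64 such symbols among the 50686 genes of the table, 40 passed: 23 chemokines, 13 signalling receptors and 4 atypical receptors. The other 24 did not, and 10 of these had no count in any library. The rule counts libraries of both genotypes, so a gene can pass it through knockout libraries.

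A chemokine binds to heparan sulfate on the vessel wall and is read by G-protein-coupled receptors on passing leukocytes, which then arrest, cross the endothelium and move up the gradient. The inflammatory ligands, such as the Ccr2 ligand Ccl2, are made on demand by macrophages, endothelium and stroma, whereas homeostatic ligands such as Cxcl12 are made constantly and hold cells in place. Atypical receptors bind chemokines without the usual signalling and clear them. In injured muscle, Ccr2-bearing monocytes are drawn from the blood by this system and become the macrophages that remove debris.

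RNA was sequenced from wild-type mice and from mice that lack Nampt in skeletal muscle (SMNKO in the labels), at 2, 4, 6 and 8 weeks of age, with 1 library per animal. Nampt is the enzyme that limits the recycling of nicotinamide to NAD. The wild-type groups held 6, 6, 2 and 5 animals in order of age and the knockout groups 5, 5, 2 and 6, sequenced in pools labelled A and B. The labels do not name the strain, the allele or the promoter that drives the deletion; vessel, nerve, connective tissue and immune cells of the same muscle are in every library. Sex was not recorded at 2 weeks, and at 8 weeks 6 of 6 knockout animals and 4 of 5 wild-type animals were labelled male. At 6 weeks both wild-type animals and knockout animal 20 were labelled male, and knockout animal 19 female.

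Nampt stood at 50.2 to 75.0 counts per 1000000 (CPM) in wild-type muscle at 2 weeks and at 31.3 to 34.8 CPM in knockout muscle. At 8 weeks the ranges were 170 to 236 CPM and 46.5 to 56.0 CPM, so the genotypes did not overlap at either age. CPM here are counts scaled to the library total with edgeR's TMM factors. Totals ran from 5192700 to 23134727 counts, with a median of 16827002. In 5 libraries, wild-type animals 3 and 4 and knockout animal 8 at 4 weeks and wild-type animals 34 and 35 at 8 weeks, rRNA genes took at least 8.49% of counts, against at most 1.24% elsewhere. A further 5 libraries, wild-type animal 25 and knockout animals 28, 29 and 31 at 2 weeks and knockout animal 7 at 4 weeks, held at least 3.8 CPM of the lymph node venule markers Glycam1, Chst4 and Madcam1 together, against at most 0.435 CPM elsewhere.

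The count rule bears on what can be read from the whole set. From wild-type libraries alone 27 of the 40 genes would have passed it. The remaining 13 needed knockout libraries or the mixture of both: Ccl3, Ccl4, Ccl5, Ccl8, Ccl12, Ccl22, Cxcl1, Cxcl13, Ccr6, Ccr7, Cxcr2, Cxcr3 and Cxcr5. Of these, 7 passed on knockout libraries of 8 weeks by themselves: Ccl3, Ccl4, Ccl8, Ccl12, Ccl22, Cxcl1 and Cxcr3. Without those libraries Ccl8, Ccl12, Ccl22 and Cxcr3 would still have passed. Ccl3, Ccl4 and Cxcl1 would not, so the latter had to be high there. The differences of all 7 at 8 weeks are given as a description of size. Just inside the rule lay Ccl4 with 3 libraries, Cxcr2 with 4, and Ccl3 and Ccr6 with 5, and just outside lay Cxcl5, Ccr3 and Cxcr1 with 1 library each and maxima of 23, 17 and 15 counts. All 40 were tested, and every adjusted p below comes from edgeR over 16728 genes.

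In resting wild-type muscle the system was dominated by a few homeostatic members. Per kilobase of exon, the level at 8 weeks was 19.5 ± 6.4 CPM for Cxcl14 (SD, n = 5), a chemokine of epithelia and stroma. It was 17.5 ± 5.3 CPM per kilobase for Ccl11, the eosinophil attractant eotaxin, and 14.65 ± 5.28 CPM per kilobase for Cxcl12, the ligand of Cxcr4 and Ackr3. These 3 levels lay within 1 SD of one another. Ackr3, the atypical receptor that takes up Cxcl12, followed at 6.80 ± 1.34 CPM per kilobase, below each of the 3 by more than its SD. Ccl6 stood at 3.04 ± 0.91 and Cxcr4 at 1.94 ± 0.58 CPM per kilobase. In knockout muscle of 8 weeks (n = 6) the order had changed: Cxcl14 was at 34.3 ± 18.1, Ccl6 at 27.2 ± 19.9 and Ccl8 at 18.1 ± 6.2 CPM per kilobase, and Cxcl12 had moved to the ninth place with 7.20 ± 1.47.

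At 2 weeks the chemokine system read much alike in both genotypes, and no member passed the test. None of the 40 was called by edgeR at an adjusted p under 0.05, and 0.0598% of all genes tested were (0.0359% higher and 0.0239% lower). A single member, Ccr9, had an unadjusted p under 0.05, and DESeq2 called 0. Ccr9 read 0.264 to 0.749 CPM in wild-type and 0.526 to 1.48 CPM in knockout libraries, and 20.7% of its 38-base words occur in other genes, mainly an opposite-strand neighbour. Ccl2 stood at 0.658 ± 0.208 CPM in knockout and 0.676 ± 0.259 CPM in wild type (SD, n = 5 and 6) and Ccr2 at 2.54 ± 0.48 and 2.59 ± 0.64 CPM. No member had all knockout libraries above or all below the wild-type ones, against 1.02% and 2.45% of all genes.

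**Figure D1:**
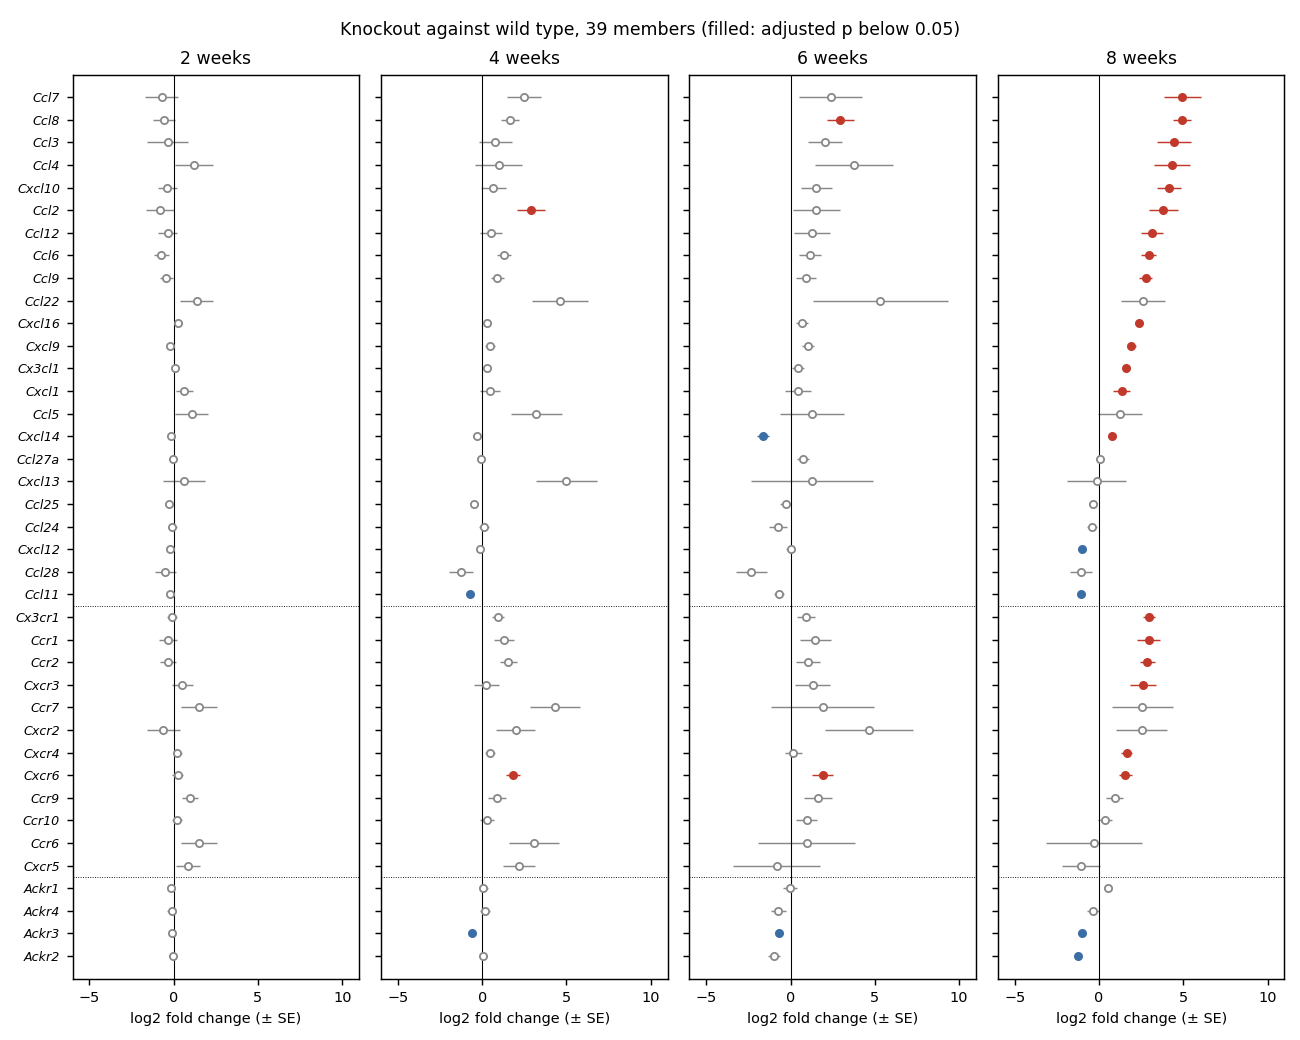
Log2 fold changes of 39 genes, knockout against wild type, with standard errors (x axis, log2) at the 4 ages (panels); dotted lines part chemokines, signalling receptors and atypical receptors, and filled points passed an adjusted p of 0.05. No point is filled at 2 weeks, 4 are at 4 weeks, 4 at 6 weeks and 24 at 8 weeks.

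At 4 weeks Ccl2 and the receptor Cxcr6 were higher in knockout muscle, and Ccl11 and Ackr3 were lower. In all 5 of 40 members passed, which compares with 5.66% of all genes tested (2.46% higher and 3.19% lower). At this age 3 of 6 wild-type and 4 of 5 knockout animals were labelled male, and with sex as a term 1 of the 5, Cxcr6, passed (adjusted p = 0.0496 by edgeR). Cxcr6, the receptor for the membrane-bound chemokine Cxcl16, read 1.13, 1.63, 0.401, 0.571 and 0.773 CPM in the 5 knockout libraries and 0.109 to 0.364 CPM in wild type, with a median of 0.204. These values rest on few reads: 23, 5, 7, 8 and 12 in the knockout libraries and 1 to 6 in wild type. All 5 knockout libraries were above all 6 wild-type ones in CPM, which 1.03% of genes showed. The log2 fold change was 1.82 ± 0.40 (SE), with an edgeR adjusted p of 0.00608. It was 1.77 without the rRNA-rich libraries (adjusted p = 0.0263), 1.63 without those with lymph node markers (adjusted p = 0.056) and 1.45 without both (adjusted p = 0.327).

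The monocyte attractant Ccl2 read 1.42, 28.7, 0.172, 0.214 and 1.87 CPM in knockout animals 7, 8, 10, 11 and 12, against 0.243 to 1.09 CPM in wild type. Thus 3 knockout libraries were above the wild-type range and the other 2 were below it. Animal 8 held 88 reads of Ccl2, far more than the rest, and 29.3% of its counts were rRNA. The log2 fold change of Ccl2 was 2.91 ± 0.84 (adjusted p = 0.0382 by edgeR). Without animal 8 it was 1.11 (adjusted p = 0.422) and did not pass.

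Ccr2 and Ccl8, which did not pass, were also high in some of animals 7, 8 and 12. Ccr2, the monocyte receptor for Ccl2, read 10.1, 32.9 and 6.38 CPM in animals 7, 8 and 12 and 2.06 and 1.78 CPM in animals 10 and 11, against 1.62 to 4.36 CPM in wild type (adjusted p = 0.0538 by edgeR). Ccl8 read 2.60 CPM in animal 7 and 1.29 CPM in animal 12, and 0.326 CPM in animal 8, against 0.121 to 0.601 CPM in wild type. The 14 macrophage markers summed to 402, 606 and 326 CPM in animals 7, 8 and 12, and to 191 and 182 CPM in animals 10 and 11, against 180 to 300 CPM in wild type. Of these markers 4 of 14 were higher at this age by the same test (Cd68, Mpeg1, Lgals3 and Ctss), and none lower. The part of these cells in the 4-week values was not tested.

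Ackr3 fell by 0.62 on the log2 scale at 4 weeks (SE 0.13, edgeR adjusted p = 0.00346). Its knockout libraries read 13.9, 13.0, 17.7, 19.4 and 21.3 CPM and its wild-type libraries 23.2 to 30.6 CPM, with a median of 26.4; no knockout library reached the wild-type range, as for 1.77% of genes. Ccl11 fell by 0.71 (SE 0.19, adjusted p = 0.0227); it read 9.94, 6.19, 10.6, 11.3 and 9.93 CPM against 9.59 to 25.1 CPM in wild type, and the ranges overlapped through the lowest wild-type library. Without the rRNA-rich libraries, without those with lymph node markers and without both, Ackr3 stood at -0.59, -0.50 and -0.44 (adjusted p = 0.0246, 0.0569 and 0.426 by edgeR) and Ccl11 at -0.60, -0.67 and -0.53 (adjusted p = 0.139, 0.125 and 0.644). Pool A alone called 7 members at 4 weeks and pool B alone called 0. Both animals 7 and 8 were in pool A, and with neither the rRNA-rich nor the lymph node libraries 0 members were called at this age.

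Only 2 libraries per genotype were made at 6 weeks, and 5 members passed, against 9.67% of all genes (5.33% higher and 4.34% lower). Ccl8, an inflammatory CC chemokine, read 1.03 and 3.15 CPM in knockout and 0.204 and 0.321 CPM in wild type (log2 fold change 2.95 ± 0.81, edgeR adjusted p = 0.0195). Cxcr6 read 0.631 and 1.08 CPM against 0.204 and 0.257 CPM (1.91 ± 0.61, adjusted p = 0.0416). Both genes were higher in both knockout animals, on few reads. Ccl8 had 13 and 61 reads against 4 and 5, and Cxcr6 had 8 and 21 against 4 and 4. Ackr3 fell by 0.70 (SE 0.20, adjusted p = 0.0248), with 16.3 and 15.3 CPM against 21.9 and 29.5 CPM. Cxcl14 fell by 1.66 (SE 0.35, adjusted p = 0.00378), with 16.5 and 17.02 CPM against 65.5 and 41.8 CPM. All 4 libraries being apart is common at this size: 17 members lay above and 7 below (12 and 7 of the 27 that met the count rule on wild-type libraries), against 27.6% and 26.5% of all genes.

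Macrophage markers summed to 1150 CPM in knockout animal 20 and to 223 CPM in knockout animal 19, with 233 and 275 CPM in wild type. Animal 20 was labelled male and was in pool A, and animal 19 was labelled female and was in pool B. Animal, sex and pool cannot be told apart between them. Without animal 20 none of the 5 calls was kept, and leaving out each library in turn left 0 to 5. The part of these cells in the 6-week values was not tested.

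By 8 weeks 14 of 23 chemokines and 7 of 13 signalling receptors were higher in knockout muscle, while Cxcl12, Ccl11, Ackr2 and Ackr3 were lower. In all 25 of 40 members passed, 21 higher and 4 lower, against 52.5% of all genes (26.2% higher and 26.3% lower). Of the 27 members that met the count rule on wild-type libraries alone, 15 rose and 4 fell. In 18 members every knockout library was above every wild-type one, and in 2, Ackr2 and Ackr3, every one was below; these patterns were found in 13.5% and 10.7% of all genes. Among the 27 that met the count rule on wild-type libraries the numbers were 12 and 2. A higher level in bulk muscle can come from more cells of a type or from more RNA per cell, and these cannot be told apart here.

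Ccl8, Ccl2, Ccl7 and Ccl12, inflammatory CC chemokines, all rose. Ccl8 read 0, 0.308, 0.102, 0.282 and 0.461 CPM in the 5 wild-type libraries. In the 6 knockout libraries it read 5.30 to 13.95 CPM with a median of 9.49. The groups were far apart, and the log2 fold change was 4.94 ± 0.52 (SE), with an edgeR adjusted p of 3.42e-09. Ccl2, Ccl7 and Ccl12 were less even. Ccl2 spanned 1.36 to 32.2 CPM in knockout muscle against 0.0658 to 1.23 CPM in wild type (3.82 ± 0.88, adjusted p = 0.000621). Ccl7 spanned 0.376 to 25.1 CPM against 0 to 0.435 CPM (4.95 ± 1.09, adjusted p = 0.000356), and knockout animal 44, its lowest, lay within the wild-type range. Ccl12 spanned 0.626 to 6.21 CPM against 0 to 0.435 CPM (3.13 ± 0.66, adjusted p = 0.000181). Knockout animal 40 was the highest library for all 3. Wild-type reads were few: 0 to 7 per library for Ccl8, 1 to 8 for Ccl2 and 0 to 4 for Ccl7 and Ccl12. The sizes of these ratios are therefore not well determined.

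Ccl6 and Ccl9, CC chemokines made by myeloid cells, rose as well. Ccl6 read 6.08, 7.39, 4.57, 3.15 and 6.12 CPM in wild type and 27.2 to 121 CPM in knockout muscle, with a median of 34.9. Its log2 fold change was 2.94 ± 0.44 (adjusted p = 2.19e-06 by edgeR). Ccl9, a ligand of Ccr1, read 3.91, 5.85, 4.37, 2.82 and 5.53 CPM in wild type and 17.9 to 88.4 CPM in knockout muscle, with a median of 27.0 (2.78 ± 0.40, adjusted p = 1.14e-06). Neither pair of groups overlapped, and animal 40 was again the highest. The macrophage inflammatory proteins Ccl3 and Ccl4 had 1 read each in the 5 wild-type libraries together; knockout libraries had 4 to 45 reads of Ccl3 and 3 to 39 of Ccl4, and the size of a ratio to 1 read is not well determined. Ccl5, an attractant of T cells, read 0.152 to 0.820 CPM against 0 to 0.924 CPM and was not called (adjusted p = 0.443).

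Among the CXC chemokines, Cxcl16, Cxcl9 and Cxcl10 rose. Cxcl16, membrane-bound and the ligand of Cxcr6, had the smallest p of all 40 members. It read 2.61, 1.54, 2.54, 1.86 and 2.44 CPM in wild type and 8.20 to 20.2 CPM in knockout muscle, with a median of 9.56 (2.34 ± 0.24, edgeR adjusted p = 1.04e-09). Of its 38-base words 17.9% also occur in Zmynd15, a neighbour on the other strand, and the strand setting of the counting is not given in the sources used here. Cxcl9 and Cxcl10 are induced by interferon gamma and act on Cxcr3. Cxcl9 read 2.61, 2.16, 1.02, 1.97 and 1.38 CPM in wild type and 3.59 to 8.79 CPM in knockout muscle, with a median of 7.04 (1.91 ± 0.26, adjusted p = 2.67e-07). Cxcl10 ranged from 0 to 0.308 CPM (0 to 4 reads) in wild type and from 1.22 to 7.14 CPM in knockout muscle (4.14 ± 0.73, edgeR adjusted p = 1.74e-05). Both were higher in every knockout library. The neutrophil attractant Cxcl1 reached 0.329 to 1.40 CPM against 0 to 0.394 CPM (log2 fold change 1.35 ± 0.51). It was called higher, but it met the count rule only with knockout libraries of 8 weeks, so the call adds no support. That call was lost without wild-type animal 34 or 38 and without the rRNA-rich libraries.

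Cx3cl1, or fractalkine, is tethered to endothelium and neurons and is read by Cx3cr1. It read 3.48, 1.85, 4.93, 2.59 and 2.30 CPM in wild type and 7.003 to 13.5 CPM in knockout muscle, with a median of 9.09 (1.58 ± 0.24, edgeR adjusted p = 1.66e-06). Its receptor read 1.74, 1.23, 2.19, 1.41 and 1.71 CPM and 8.31 to 28.2 CPM, with a median of 11.3 (2.97 ± 0.35, adjusted p = 3.76e-08). Ligand and receptor thus both rose, with no overlap of groups in either.

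**Figure D2:**
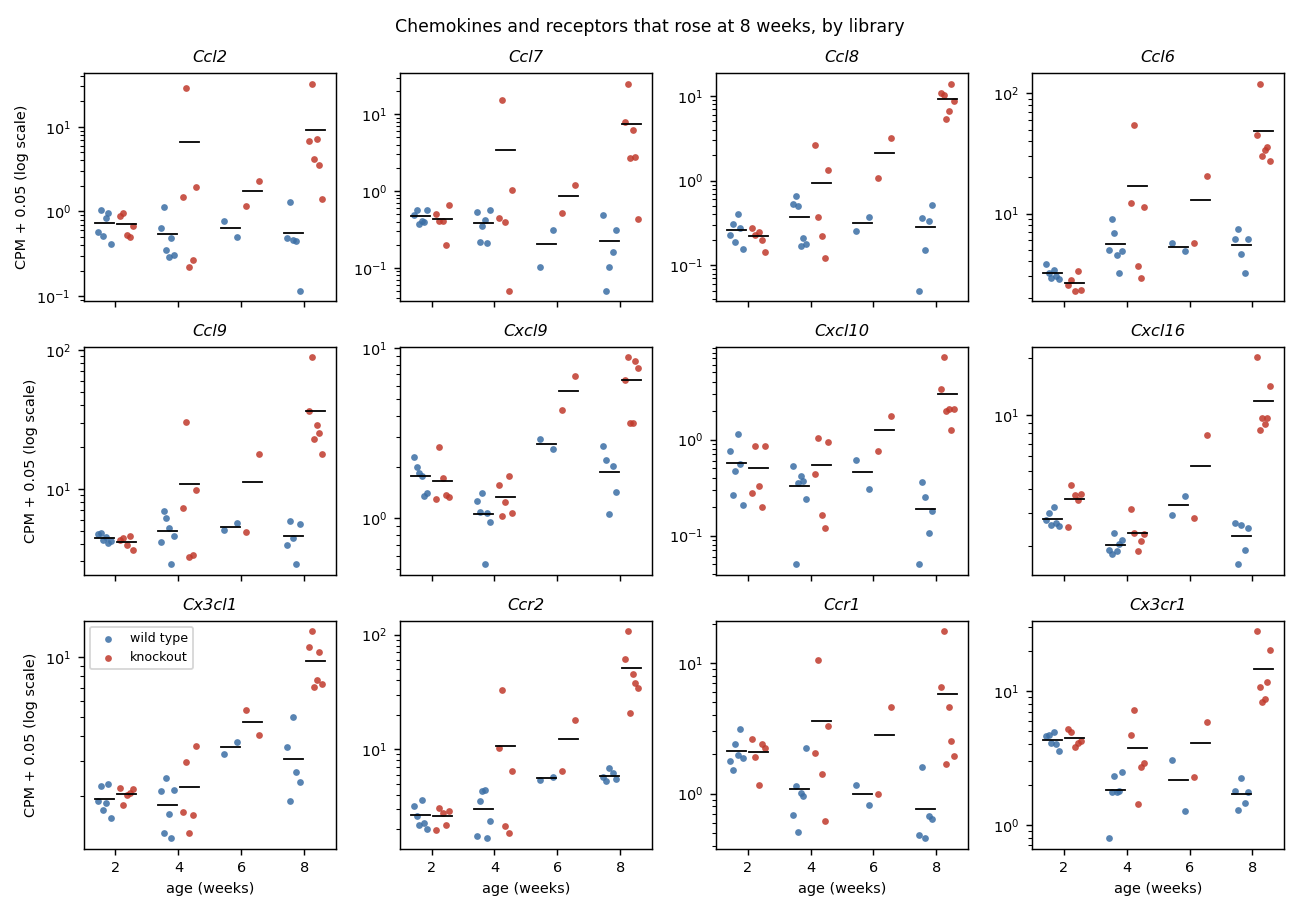
CPM plus 0.05 on a log axis against age in weeks for 12 members that rose at 8 weeks; each point is 1 library, blue for wild type and red for knockout, and bars mark group means. The genotypes lie together at 2 weeks, and some knockout libraries stand apart at 4 weeks. At 6 weeks both knockout libraries are above wild type for Ccl2, Ccl6, Ccl7, Ccl8, Ccr2, Cx3cl1, Cxcl9 and Cxcl10, as for 27.6% of all genes. At 8 weeks all 6 knockout libraries are above wild type except 1 for Ccl7.

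Of the 13 signalling receptors 7 passed, none of them lower, which is 53.8% against 52.5% of all genes called in either direction. Ccr2 spanned 20.6 to 108 CPM against 5.24 to 6.81 CPM (2.87 ± 0.45, edgeR adjusted p = 4.85e-06). Ccr1, the myeloid receptor for Ccl3 and Ccl9, spanned 1.65 to 17.5 CPM against 0.407 to 1.54 CPM (2.94 ± 0.67, adjusted p = 0.000519).

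Receptors shared with lymphocytes moved less or were scarce. Cxcr4 spanned 5.58 to 20.95 CPM against 2.46 to 4.78 CPM (1.65 ± 0.32, edgeR adjusted p = 8.15e-05). Cxcr6 spanned 0.825 to 1.52 CPM against 0 to 0.869 CPM (1.57 ± 0.37, adjusted p = 0.000707). Cxcr3, the receptor for Cxcl9 and Cxcl10 on activated T cells and NK cells, had 8 to 20 reads per knockout library and 0 to 3 per wild-type library (2.62 ± 0.79, adjusted p = 0.0057). The neutrophil receptor Cxcr2 had 1 to 14 reads against 0 to 1 and was not called (adjusted p = 0.159). Ccr9, Ccr10, Ccr6, Ccr7 and Cxcr5 did not pass either, and their means were at most 1.06 CPM in both groups.

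The 4 members that fell are ones made in resting tissue. Cxcl12 read 119, 102, 191, 112 and 75.0 CPM in wild type and 44.8 to 79.6 CPM in knockout muscle, with a median of 57.8. It fell by 1.01 on the log2 scale (SE 0.16, edgeR adjusted p = 4.41e-06), and only the lowest wild-type library was within the knockout range. Ackr3, its scavenger, read 24.3, 27.4, 15.6, 21.7 and 24.7 CPM and 9.44 to 14.1 CPM, with a median of 11.2; it fell by 0.98 (SE 0.13, adjusted p = 1.16e-07). The signalling receptor of the same ligand, Cxcr4, was higher. Ackr2, which clears inflammatory CC chemokines such as Ccl2 and Ccl3, fell by 1.22 (SE 0.24, adjusted p = 5.91e-05), with 0.638 to 1.25 CPM against 1.42 to 3.09 CPM in wild type. Ccl11 fell by 1.08 (SE 0.19, adjusted p = 1.76e-05), with 5.91 to 11.6 CPM against 10.5 to 25.3 CPM.

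The falls depend on how libraries are scaled. With library totals alone in place of TMM factors, the median log2 fold change of all genes at 8 weeks moved from 0.03 to 0.82. Cxcl12, Ccl11, Ackr3 and Ackr2 then stayed below 0, at -0.16, -0.22, -0.13 and -0.48, but none passed, and 27 members were higher and 0 lower. Relative to the median gene they fell under both scalings. Rescaling moves all genes by nearly the same amount, so this comparison could not have come out otherwise and cannot decide the matter. Markers of endothelium, a source of Cxcl12 and Ackr3, were also lower (6 of 6, summing to 228 to 284 CPM against 309 to 523 CPM), as were 6 of 9 markers of muscle fibres, and neither list had a lower call with library totals alone. Of 8 fibroblast markers 4 were higher (Pdgfra, Dpt, Col3a1 and Lum) and 1, Dcn, was lower, and they summed to 4340 to 8140 CPM against 2690 to 3640 CPM. The part of these cells in the falls was not tested.

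**Figure D3:**
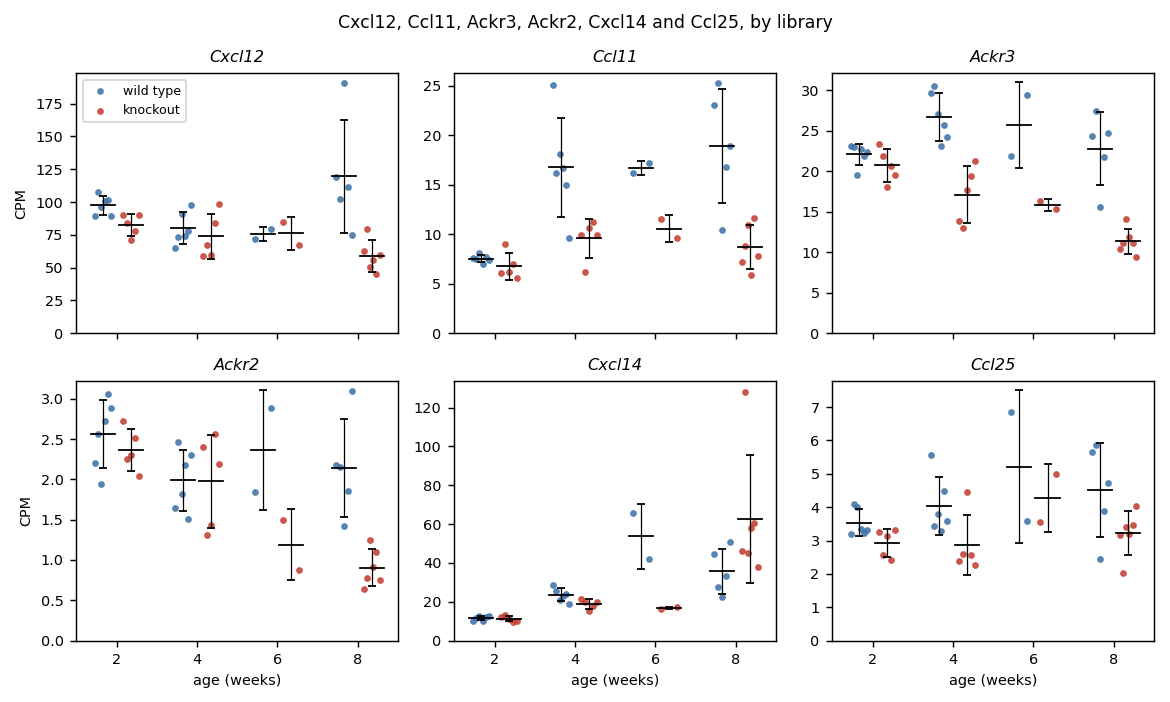
CPM against age in weeks for Cxcl12, Ccl11, Ackr3, Ackr2, Cxcl14 and Ccl25, with each library as a point (blue wild type, red knockout) and bars for the group mean and SD. Ackr3 separates from 4 weeks on, Ackr2 at 6 and 8 weeks, and Cxcl14 is low in knockout muscle at 6 weeks and high at 8.

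Cxcl14 changed direction. It was lower in knockout muscle at 6 weeks and higher at 8 weeks, when it read 38.1 to 128 CPM, with a median of 52.1, against 22.4 to 50.7 CPM (0.77 ± 0.22, edgeR adjusted p = 0.00319). The groups overlapped, and the call was lost in pool A alone, in pool B alone and in a fit of the 8-week groups only. The difference between 6 and 8 weeks was not tested. Among further chemokines that did not pass, Ccl25, the ligand of Ccr9, was at 3.218 ± 0.659 CPM against 4.51 ± 1.40 CPM (SD, n = 6 and 5). Ccl24 was at 1.24 ± 0.43 against 1.80 ± 1.64 CPM, Ccl28 at 0.218 ± 0.244 against 0.444 ± 0.415 CPM and Ccl27a at 2.33 ± 0.78 against 2.34 ± 0.46 CPM. Of the words of Ccl27a, 51.9% occur in copies such as Ccl27b, which makes its counts uncertain. The atypical receptors Ackr1 of venules and red cells and Ackr4, a scavenger of Ccl25, were not called (adjusted p = 0.0874 and 0.397).

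Neighbours in the genome did not all move together. Ccl2, Ccl7, Ccl11, Ccl12 and Ccl8 lie in this order within 81.2 kb of chromosome 11 (82035571 to 82116799, mm10). At 8 weeks Ccl2 and Ccl7 on one side and Ccl12 and Ccl8 on the other rose, and Ccl11 between them fell. The second cluster on chromosome 11, 138.9 kb from 83525778 to 83664683, holds Ccl5, Ccl9, Ccl6, Ccl3 and Ccl4. Of these Ccl9 and Ccl6 rose and Ccl5 was not called. Ccl3 and Ccl4 were called higher too. They met the count rule only with knockout libraries of 8 weeks, so their calls add no support. Cxcl9 and Cxcl10, 27.5 kb from end to end on chromosome 5, both rose, whereas of Ccl22 and Cx3cl1 on chromosome 8 the second passed and the first did not (adjusted p = 0.0930 by edgeR).

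Promoters were available for 29 of the 40 genes (33 promoters of 300 bases, RefSeq, GRCm38.p6), and were searched for letters read by factors that switch on chemokine genes. Those of Ccl2, Ccl4, Ccl5, Ccl7, Ccl11, Ccl24, Cxcl16, Ccr7, Ccr10 and Cxcr5, among others, were not used here. The NF-kB motif, searched on both strands, was found in 7 of 33 promoters and in 8.46% of all 32817. Of the 7 genes, Cxcl10, Ccl9 and Ccr1 rose at 8 weeks, Ackr2 fell, and Ccr6 and Ccl27a were not called. Cxcl1 was called higher too, but it met the count rule only with knockout libraries of 8 weeks and adds no support. Of all genes tested, 26.2% were higher and 26.3% lower. Members without a match also rose (such as Ccl8, Cx3cl1 and Cxcl9), fell (Ackr3 and Cxcl12) or were not called (such as Ccl22 and Ccl25). A link of the motif to the rise was not tested. The AP-1 letters TGANTCA, on both strands, were in 5 promoters and 7.81% of all, the STAT letters TTCNNNGAA in 2 and 8.29%, and TATAAA on the gene's strand in 10 and 8.32%. The 250 bases before the start site of 4 called members with an NF-kB match are shown with the matches in capitals, because they set a ligand with several matches beside ones with a single run and beside a scavenger that fell; positions count back from -1, the base before the start.
Cxcl10 (chr5:92348890-92349139, minus strand): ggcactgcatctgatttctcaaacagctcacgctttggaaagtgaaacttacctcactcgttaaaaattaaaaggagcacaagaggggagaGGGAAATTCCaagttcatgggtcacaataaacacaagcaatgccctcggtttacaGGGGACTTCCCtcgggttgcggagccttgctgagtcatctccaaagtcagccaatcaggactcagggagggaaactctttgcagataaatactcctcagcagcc
Cxcl1 (chr5:90890995-90891244, plus strand): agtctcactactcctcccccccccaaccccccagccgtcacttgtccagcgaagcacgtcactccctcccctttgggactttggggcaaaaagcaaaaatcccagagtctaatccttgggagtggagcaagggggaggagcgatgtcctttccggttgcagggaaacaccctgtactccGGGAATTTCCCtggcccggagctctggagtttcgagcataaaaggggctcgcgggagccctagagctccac
Ccl9 (chr11:83578637-83578886, minus strand): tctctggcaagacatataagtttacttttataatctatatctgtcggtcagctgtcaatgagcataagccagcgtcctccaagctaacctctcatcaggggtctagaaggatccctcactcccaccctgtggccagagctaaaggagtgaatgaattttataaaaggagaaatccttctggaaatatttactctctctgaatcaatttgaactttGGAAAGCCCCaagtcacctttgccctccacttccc
Ackr2 (chr9:121898105-121898354, plus strand): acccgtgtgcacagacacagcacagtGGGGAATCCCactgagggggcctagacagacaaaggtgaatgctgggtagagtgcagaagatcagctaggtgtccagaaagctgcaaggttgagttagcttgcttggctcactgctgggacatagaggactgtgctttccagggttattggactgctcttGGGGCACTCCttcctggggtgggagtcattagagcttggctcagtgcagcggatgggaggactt
In Cxcl10 the matches start at -159, -104 and -103, the latter pair overlapping, and an AP-1 match starts at -74. In Cxcl1 they start at -71 and -70 and overlap, in Ccl9 at -35, and in Ackr2 at -224 and -64. A match is a description of letters and not a bound site.

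Macrophage markers were higher at 8 weeks too. All 14 passed, and they summed to 962 to 2090 CPM in knockout muscle against 159 to 224 CPM in wild type; none was at 0. Of 9 neutrophil markers 5 could be tested and 1 passed, as did 2 of 11 T cell markers, 0 of 9 B cell markers and 3 of 4 NK cell markers tested. The eosinophil marker Siglecf and the 4 fibroblast markers named above were also higher. Satellite cell markers were mixed: Pax7 and Myf5 were higher by 0.95 and 0.71 on the log2 scale. Chrdl2 was lower by 2.68 (edgeR adjusted p = 2.75e-06), and Calcr was not called. Per 1000 CPM of summed macrophage markers, Ccl6 had a median of 27.4 CPM in both genotypes, Ccl9 of 24.7 in wild type and 19.8 in knockout, Ccr2 of 26.6 and 29.5, and Cx3cr1 of 8.18 and 9.14. These 4 members kept about the same ratio to the markers while their levels rose. Ccl8 had 0 to 2.06 in wild type and 4.68 to 10.9 in knockout muscle, and was higher also per marker. By contrast Cxcl9 went from a median of 10.1 to 4.66, Cx3cl1 from 16.3 to 7.03 and Cxcr4 from 17.8 to 7.90. The ratios are a description; the part of macrophage number in each rise was not tested.

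**Figure D4:**
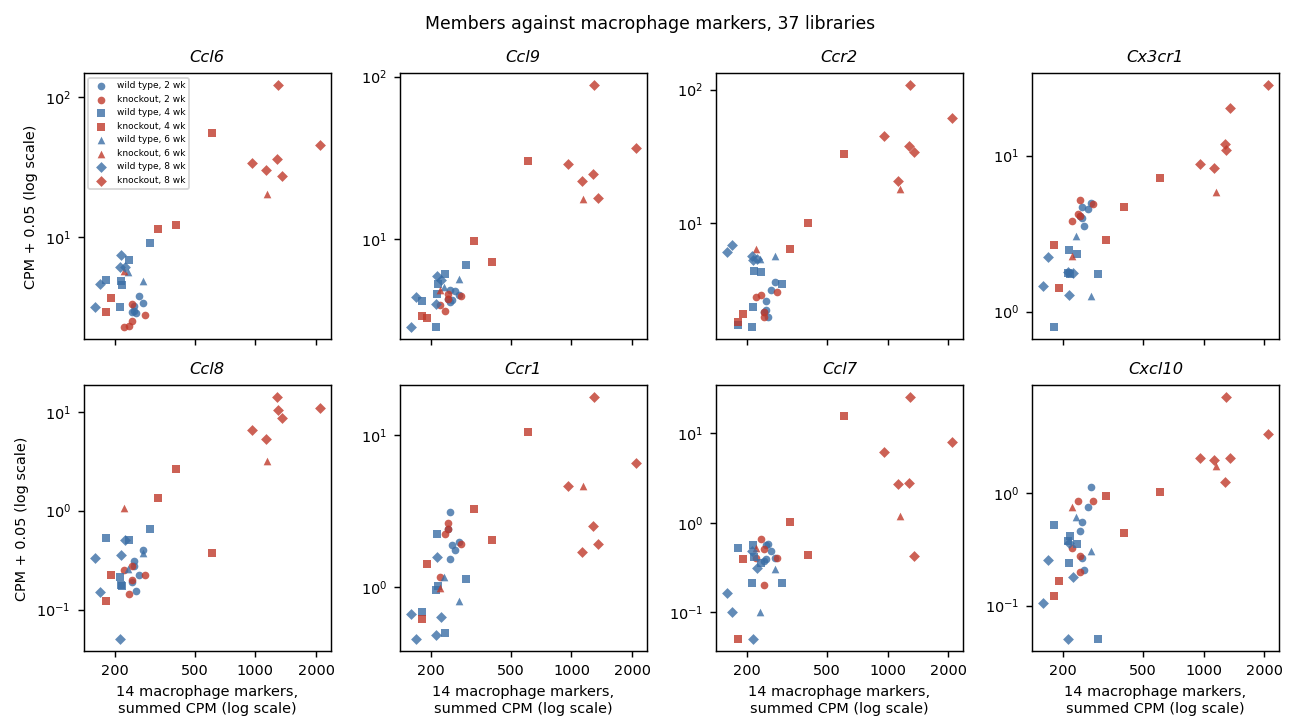
CPM plus 0.05 of 8 members (y, log axis) against the summed CPM of 14 macrophage markers (x, log axis) in 37 libraries; colour gives the genotype (red knockout) and shape the age. Knockout libraries of 8 weeks lie at 962 CPM or more of markers, knockout animal 20 at 6 weeks lies among them at 1150 CPM, and knockout animal 8 at 4 weeks lies below them at 606 CPM.

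The excess over the earlier age was tested directly. The difference of the knockout effect, 4 minus 2 weeks, called none of 40 members and 0% of all genes by edgeR, with 10 members at an unadjusted p under 0.05 and 0 by DESeq2. From 4 to 8 weeks it called 13 of 40 members, against 27.4% of all genes (13.5% higher and 13.8% lower). The effect on Cxcl16 grew by 2.07 ± 0.35 (SE, log2, edgeR adjusted p = 5.09e-05), that on Ccl8 by 3.28 ± 0.82 (adjusted p = 0.00326) and that on Cx3cr1 by 2.02 ± 0.51 (adjusted p = 0.00348). It also grew for Cxcl9, Cx3cl1, Cxcl14, Ccl9, Cxcl10, Ccl12, Ccl6 and Cxcr4. For Ackr2 the effect dropped by 1.26 (SE 0.32, adjusted p = 0.0038) and for Cxcl12 by 0.88 (SE 0.23, adjusted p = 0.00438). Ccl2, Ccr2 and Ccl7 did not pass this test; animal 8 at 4 weeks, with 28.7 CPM of Ccl2 and 15.3 CPM of Ccl7, is in its baseline, and without the rRNA-rich libraries Ccl7 passed (4.50, adjusted p = 0.0444 by edgeR). Pool A alone called 0 members here, pool B alone 10, and 7 were called with neither the rRNA-rich nor the lymph node libraries.

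Wild-type muscle itself changed with age. Between 2 and 4 weeks 8 members passed, against 47.9% of all genes (24.2% higher and 23.6% lower). Ccl11 rose from 7.54 ± 0.35 to 16.8 ± 5.0 CPM (SD, n = 6 each; log2 fold change 1.11 ± 0.18 SE, edgeR adjusted p = 8.23e-06) and Cxcl14 from 11.6 ± 1.2 to 23.5 ± 3.3 CPM (adjusted p = 0.000282). Cxcr4 fell from 11.6 ± 0.6 to 5.03 ± 2.37 CPM, Cx3cr1 from 4.27 ± 0.51 to 1.76 ± 0.59 CPM and Cxcr6 from 0.738 ± 0.239 to 0.225 ± 0.098 CPM. Ackr4, Cxcl9 and Ccr10 fell as well, by 1.10, 0.82 and 0.93 on the log2 scale. With library totals alone the median gene moved by -0.53 and 17 members passed.

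Between 4 and 8 weeks 3 members passed in wild type, all higher, against 15.4% of all genes (7.8% higher and 7.59% lower). Cxcl12 rose by 0.58 ± 0.16 (log2, SE, edgeR adjusted p = 0.0131), Cx3cl1 by 0.88 ± 0.27 (adjusted p = 0.0214) and Cxcl14 by 0.62 ± 0.22 (adjusted p = 0.0475). None of these calls was kept with library totals alone, and 0 members passed in either pool alone. In knockout muscle Cxcl12 read 71.2 to 90.4 CPM at 2 weeks and 44.8 to 79.6 CPM at 8 weeks, and Ccl11 read 5.55 to 9.01 and 5.91 to 11.6 CPM.

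Some members marked 5 libraries instead of a genotype. Ccr7, the receptor that brings lymphocytes and dendritic cells into lymph nodes, read 1.71 to 2.78 CPM in the 4 libraries of 2 weeks with lymph node venule markers, and 0 to 0.105 CPM in the 7 without. Cxcl13, which attracts B cells to follicles, read 1.23 to 3.74 CPM against 0 to 0.0566 CPM. Ccl22 of dendritic cells read 1.33 to 2.82 against 0 to 0.139 CPM, Ccl5 0.617 to 1.44 against 0 to 0.113 CPM and Ccr6 0.474 to 0.556 against 0 CPM. At 4 weeks knockout animal 7 had 5.58 CPM of Ccr7 and 5.73 CPM of Cxcl13, and the 10 other libraries had at most 0.159 and 0.243 CPM. Wild-type animal 25 is among these libraries, so they are of both genotypes. At 8 weeks no library held over 0.435 CPM of the venule markers, and Ccl22 read 0.758 to 1.40 CPM in knockout muscle against 0 to 0.254 CPM, with no overlap and no call.

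**Figure D5:**
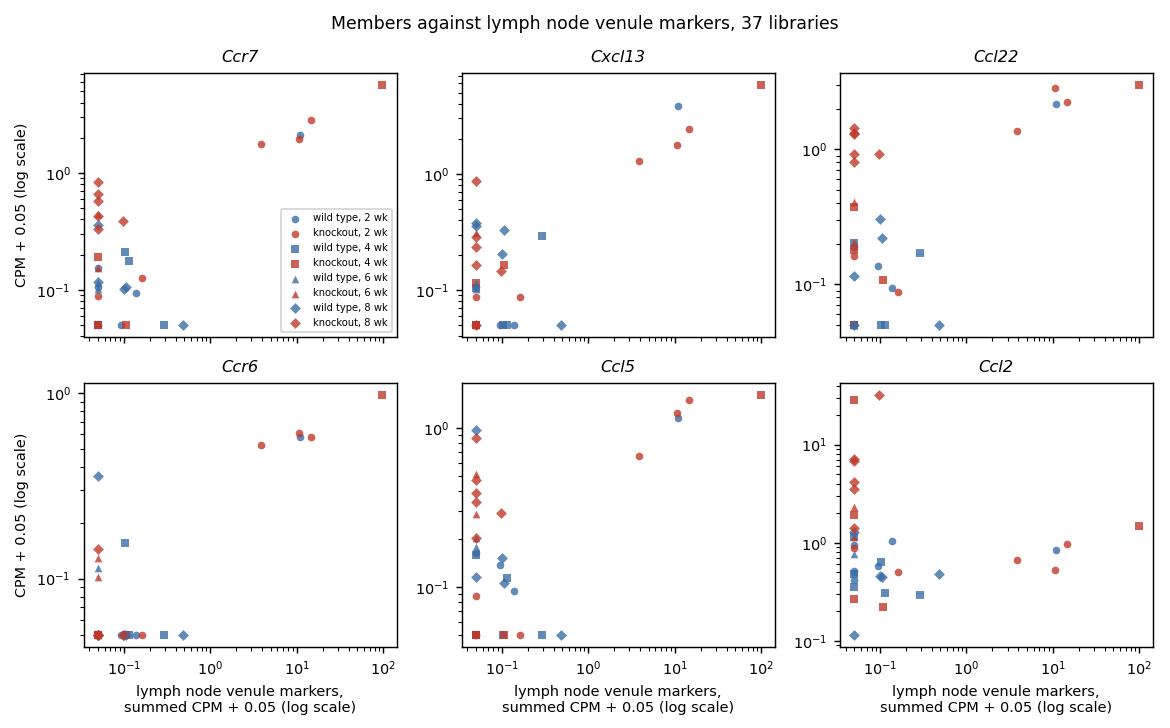
CPM plus 0.05 of 6 members (y, log axis) against the summed CPM plus 0.05 of Glycam1, Chst4 and Madcam1 (x, log axis) in 37 libraries, coloured by genotype and shaped by age. The 5 libraries at 3.8 CPM or more are the highest for Ccr7, Cxcl13 and Ccr6, and are not for Ccl2.

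Of 106 tested genes in 5 lists of genes that act with chemokines, 77.4% passed at 8 weeks, against 52.5% of all genes (26.2% higher and 26.3% lower). Of 32 genes of chemokine signalling inside the cell, 24 were higher and 3 lower, with a median log2 fold change of 1.10 against 0.03 for all genes. The beta-arrestin Arrb2 rose by 1.30 ± 0.15 (edgeR adjusted p = 1.43e-08) and the phosphoinositide kinase Pik3cg by 2.10 ± 0.28, and Jak2 fell by 1.87. Of 22 genes of leukocyte adhesion and passage, 12 were higher and 5 lower. Sirpa, a receptor of myeloid cells, rose by 2.15 ± 0.23, Vcam1, on which leukocytes arrest, by 1.36 ± 0.20 and the integrin Itgax by 4.72 ± 0.63, and the junction gene Jam2 fell by 0.82. The other 4 that fell, Pecam1, Cdh5, Icam2 and F11r, are named after their values were seen. Under library totals alone that list had 16 higher and 0 lower.

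Of 23 tested inducers of chemokine genes, 18 were higher and 0 lower, among them Nfkb2 by 1.39 ± 0.16 (edgeR adjusted p = 1.28e-08), Irf7 by 1.78 ± 0.21, Tlr2 by 1.64 ± 0.20 and Ikbke by 2.22 ± 0.31. Nfkb2 was the only gene of that list to pass at 4 weeks (0.73 ± 0.16, adjusted p = 0.00446). Of 16 proteases and binders that act on chemokines, 9 were higher and 1 lower: the macrophage elastase Mmp12, which trims chemokines, rose by 9.14 ± 0.93 the heparan sulfate carrier Sdc3 by 1.40 ± 0.17 and the membrane protease Mmp14 by 1.23 ± 0.18, and Ndst1, which sulfates heparan, fell by 0.43. Of 13 tested chemoattractants and receptors outside the symbol rule, 7 were higher and 3 lower. The complement receptor C5ar1 rose by 2.68 ± 0.44 and the platelet chemokine Pf4 by 1.77 ± 0.29, while Ccrl2 fell by 1.74 and S1pr1 by 0.63. At 4 weeks 5 genes of these lists passed, 4.72% against 5.66% of all genes: Pik3cd and Pik3r5 rose with Nfkb2, and Jak2 and Sdc2 fell.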

How the data were processed

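Gene expression was measured by RNA sequencing in 37 muscles, 1 library per animal. The deposited table holds whole-number counts per Ensembl gene with no normalization; the submitters' processing notes list mm10 and, without roles, edgeR 3.22.0, featureCounts 1.5.2 and STAR 2.5.2b, and per the labels' protocols libraries were stranded, rRNA-depleted and read as 38-base pairs. Annotation and strand setting are not given in the sources used here. Symbols and positions came from the GENCODE annotation of mm10 (GRCm38), in which 50462 of 50686 identifiers were found.

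The counts as deposited were fitted with edgeR 4.0.16 (R 4.3.3): TMM factors (0.443 to 1.59), filterByExpr (minimum count 10, total 15), 8 genotype-by-age groups with sequencing pool as a term, the robust quasi-likelihood test and Benjamini-Hochberg adjustment at 0.05. All groups entered 1 fit with 28 residual degrees of freedom, so groups of 2 borrow their spread from the others. No 2 libraries agreed within sampling noise. The fit was tested on simulated data. DESeq2, other scalings and filters, single pools, a sex term and left-out libraries were alternatives; leaving out the rRNA-rich and lymph node libraries was chosen after seeing the data. Apart from that noted at the end, every member called in a knockout comparison is named, with values by library for at most the 10 with the smallest p; other comparisons name up to 8, and other lists up to 4 genes by p. All 13 members of the 8 minus 4 weeks difference are named, which goes beyond that rule. The members and gene lists were chosen with earlier results of these data known. Intervals and spreads cover these animals only. Gene lists are described by counts and medians without a test. The values of 1 member and of 1 gene of the signalling list are not reported here; both stay in the counts of called genes, and the member is left out of the plots and of the search for libraries that stand apart.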

Additional observations from a re-analysis of the deposited data

Results flagged for a closer look

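Within groups of 4 to 10 libraries, 25 genes (Nampt and 24 members that passed in a knockout comparison) were looked at for a library whose gap to its nearest neighbour took most of the group's range, by Dixon's 95% values on CPM. This held in 30 of 150 gene and group combinations, where chance gives about 1 in 20, and 10 of the 30 were knockout animal 8 at 4 weeks and 8 were knockout animal 40 at 8 weeks.

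Knockout animal 8 was the highest of its group for Ccl2 (28.7 CPM, next 1.87), Ccl7 (15.3), Ccl6 (54.8), Ccl9 (30.3), Ccl3 (1.30), Ccl4 (0.652), Cxcl1 (0.978), Ccr1 (10.4) and Ccr2 (32.9), and the lowest for Ccl11 (6.19). It is the library with 29.3% of counts in rRNA genes and the highest macrophage marker sum at 4 weeks, 606 CPM; the part of either was not tested. Knockout animal 40 was the highest of its group for Ccl2 (32.2 CPM), Ccl6 (121), Ccl7 (25.1), Ccl9 (88.4), Ccl12 (6.21), Cxcl10 (7.14), Cxcl14 (128) and Ccr1 (17.5). Its macrophage marker sum, 1300 CPM, was not the highest at 8 weeks, which was 2090 CPM in animal 39, and its rRNA share was 0.0327%. Without it no call at 8 weeks was lost, but Ccl6 no longer passed the test of 8 minus 4 weeks (1.35 on the log2 scale, edgeR adjusted p = 0.079).

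Other libraries stood apart for single genes. Nampt was highest at 56.0 CPM in knockout animal 43 at 8 weeks, and Ackr3 was lowest at 19.5 CPM in wild-type animal 24 at 2 weeks. Ccr1 was highest at 2.17 CPM in wild-type animal 6 at 4 weeks and at 1.54 CPM in wild-type animal 35 at 8 weeks. Cxcr3 was highest at 0.528 CPM in wild-type animal 25 at 2 weeks, 0.588 CPM in knockout animal 7 at 4 weeks and 0.892 CPM in knockout animal 44 at 8 weeks; the first and second are libraries with lymph node markers. At a few reads or fewer, Ccl4 was highest in wild-type animals 26 (0.0566 CPM, 2 weeks), 1 (0.106, 4 weeks) and 36 (0.0508, 8 weeks) and in knockout animal 31 (0.142, 2 weeks), and Ccl3 in wild-type animal 36 (0.0508).

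The knockout effect differed between 8 and 4 weeks, by edgeR's test of the difference, for 13 members. On the log2 scale it was larger at 8 weeks by 2.07 for Cxcl16, 3.28 for Ccl8, 2.02 for Cx3cr1, 1.46 for Cxcl9, 1.32 for Cx3cl1, 1.08 for Cxcl14, 1.88 for Ccl9, 3.48 for Cxcl10, 2.59 for Ccl12, 1.62 for Ccl6 and 1.16 for Cxcr4. For Ackr2 and Cxcl12 the difference was -1.26 and -0.88.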

How the results depend on the processing

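No called member changed sign under any alternative run. At 2 weeks and in the difference of 4 minus 2 weeks every setting called 0. At 8 weeks, where 25 passed, pool A alone, with 2 wild-type libraries that are both rRNA-rich, called 14; the other settings called 22 to 27, and leaving out each library 24 to 28. At 4 weeks, where 5 passed, library totals alone called 2, no filter 3, pool B alone 0, a fit of the compared groups only 1, a sex term 1, DESeq2 12, no rRNA-rich libraries 2, no lymph node libraries 1 and neither set 0; leaving out each library gave 2 to 11. At 6 weeks, where 5 passed, totals alone called 1, no filter 2, pool A 1, pool B 0, the compared groups only 3 and a sex term 3, and leaving out each library gave 0 to 5. For 8 minus 4 weeks, with 13, pool A called 0 and neither set of libraries 7, and leaving out gave 10 to 18. In wild type, 4 against 2 weeks with 8 became 17 with totals alone, 4 in pool A and 13 with the compared groups only, and 7 to 10 with a library left out; 8 against 4 weeks with 3 became 0 with totals alone, 0 in pool A, 0 in pool B, 1 with the compared groups only and 0 with a sex term, and 1 to 3 with a library left out. Counts over all genes shifted too: of 946 at 4 weeks, settings other than a left-out library gave 9 (pool B alone) to 1338 (DESeq2), of 1617 at 6 weeks 96 to 2037, of 10 at 2 weeks 1 to 177, of 8790 at 8 weeks 4286 to 11219, and of 4576 for 8 minus 4 weeks 1107 to 7393. The cause of these shifts was not tested, beyond fewer libraries where some are left out. No paired analysis was possible because animal numbers are not shared between groups. Depth limits Ccl3, Ccl4, Cxcr2 and Cxcr3, which had few or no reads in wild-type libraries of 8 weeks. It also limits the size of the ratios of Ccl7, Ccl12 and Cxcl10, with at most 4 reads in any of these libraries. The same holds for Ccl8 and Ccl2, with at most 7 and 8. Cxcr6 had at most 6 reads in any wild-type library of 4 or 6 weeks.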
